A study of Mus musculus with 42 samples.

Results

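Squamous cell carcinomas of mouse skin were set against normal skin with 2-colour arrays that carry long DNA oligonucleotides. The members are the 12 arrays of the first array design whose titles name a carcinoma, numbered 1 to 6, or a normal skin, numbered 1 to 6, out of 42 arrays in all. Carcinomas came from female Sencar mice, a strain bred for its sensitivity to skin tumour induction, that were adult at sampling, were 7 to 8 weeks old at initiation and received DMBA and TPA. Normal skins were untreated adult skin, and their labels give no strain, sex or age, so tumour state cannot be told apart from treatment, strain or sex. Both groups were whole tissue, and no label says whether the normal skins came from separate animals, so p-values may measure only the spread between samples. On every one of the 12 arrays the tissue RNA was in Cy3 and a commercial universal mouse RNA pool, the same for both groups, was in Cy5. Values below are log2 ratios of tissue over that pool, centred on each array's median, with the direction likely rather than stated. In the deposited values 41 epidermal genes had a median below 0 and 21 genes of other organs one above 0 on each of the 12 arrays. Low-risk and high-risk papillomas, benign tumours of the same series, also served to estimate the spread. Each SE and p-value of the main fit therefore reflects papilloma spread too, not that of the 12 arrays alone.

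In chemical skin carcinogenesis DMBA mutates keratinocytes, most often in Hras, and repeated TPA drives their outgrowth to papillomas, some of which progress to squamous cell carcinomas. Normal skin holds an epidermis whose cells stop dividing as they move up and cornify, hair follicles with their own keratins, sebaceous glands, dermis, fat and a thin muscle layer. Wounded epidermis and squamous tumours switch to an activated programme with stress keratins, small proline-rich proteins and S100 alarmins. In whole tissue, fewer cells of a type and less RNA per cell cannot be told apart.

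The arrays held 16936 to 21404 values for 21997 probes, with 2.70% to 23% of the probes empty, and the number of arrays limits the precision. The pattern of empty probes divided the labelled arrays into 5 sets. Carcinomas 1 to 4 and normal skin 2 lay in 1 set, called set D here, and carcinomas 5 and 6 and normal skin 1 in another, set C. Normal skins 3 to 6 lay in a set that holds no carcinoma, and their database numbers fall below 50000 where those of the other 8 arrays lie above. For those 4 skins, set and tissue cannot be told apart, so values within set D, which has 1 normal skin, are given beside the main results.

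The arrays labelled carcinoma 6 and normal skin 1 were nearly the same. Their ratios correlated at r = 0.984 over 16718 probes and differed by a median of 0.065 in absolute value on the log2 scale. The next closest pair among the labelled arrays differed by a median of 0.177. Carcinomas 1 to 4 correlated with each other at 0.717 to 0.807, and normal skins 2 to 6 with each other at 0.66 to 0.876. Carcinomas 1 to 4 against normal skins 2 to 6 gave only 0.422 to 0.623. The library labelled normal skin 1 correlated at 0.781 with carcinoma 5 of its own set. Outside that set it correlated at 0.462 to 0.614 with carcinomas 1 to 4 and at 0.428 to 0.564 with normal skins 2 to 6. Carcinoma 5 correlated with carcinomas 1 to 4 at 0.398 to 0.557. All of these correlations run across probes, which share 1 reference pool and are not independent.

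**Figure D1:**
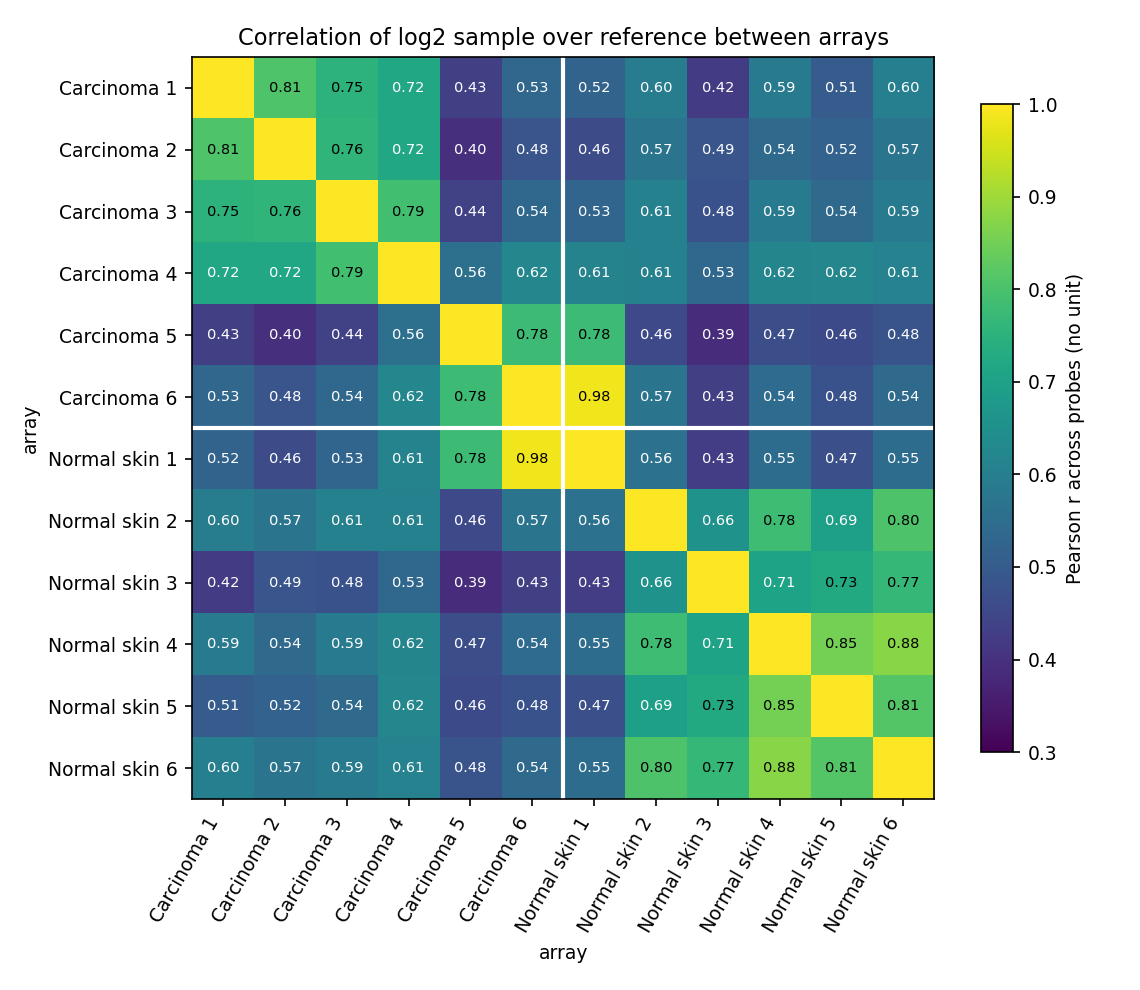
Pearson correlation, with no unit, of log2 tissue over reference across probes for each pair of the 12 arrays, with carcinomas first on both axes and the white lines parting the groups. Carcinomas 1 to 4 and normal skins 2 to 6 form 2 blocks, and the pair of carcinoma 6 and the library labelled normal skin 1 stands out at 0.984.

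Each array was also set against a fit that did not contain it. Leaving out 1 array and taking the genes called without it, carcinomas 1 to 4 lay nearer the carcinoma mean for 92.8% to 98.9% of the called genes with a value, and carcinomas 5 and 6 for 72.5% and 74.1%. Normal skins 2 to 6 lay nearer the normal mean for 74.8% to 98.6%. The library labelled normal skin 1 lay nearer the carcinoma mean for 449 of 479 genes, or 93.7%. That fit kept its near-copy, carcinoma 6, among the carcinomas, so this share was partly set in advance. The fit without carcinoma 6 likewise kept normal skin 1 among the normal skins. With both arrays of the pair left out of the fit, that library lay on the carcinoma side for 357 of 418 genes (85.4%) and carcinoma 6 for 346 of 397 (87.2%). For these genes the measured values of the library labelled normal skin 1 mostly lay on the side opposite to its label. The fit without the pair still kept carcinoma 5, of the same array set, among the carcinomas. It held no array of that set among the normal skins. The 85.4% may thus follow array set in part, and the share of array set in it was not tested. Values without the pair are given beside the counts and the genes that carry the results.

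**Figure D2:**
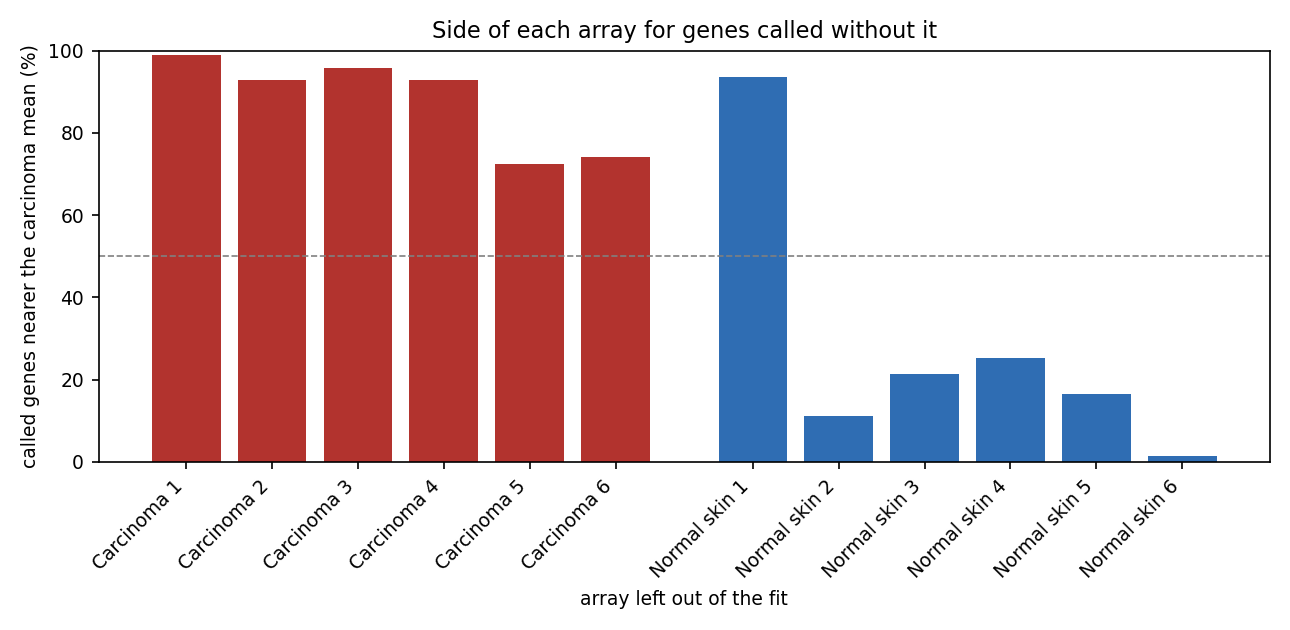
Percentage of called genes, on an axis from 0 to 100, for which an array left out of the fit lay nearer the carcinoma mean than the normal mean, with carcinomas in red on the left, normal skins in blue on the right and a dashed line at 50. The library labelled normal skin 1 reached 93.7% in a fit that kept its near-copy, carcinoma 6. With both left out it reached 85.4%, which is not drawn. Normal skins 2 to 6 stayed at 25.2% or less.

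The comparison asks which genes differ between malignant skin tumours and untreated skin. At a limma adjusted p under 0.05, 219 of 18904 probes differed (1.16%), 48 higher in carcinomas (0.254%) and 171 lower (0.905%). At an unadjusted p under 0.05 there were 1017 higher and 1125 lower. Without the near-identical pair the same fit called 484 probes (2.56%), 146 higher (0.772%) and 338 lower (1.79%), among them all 219. The values of the groups did not overlap for 4.01% of the probes with the pair, 1.68% higher and 2.33% lower in carcinomas. Without it the shares were 5.24% higher and 6.71% lower. With array set as a fixed term the counts were 10 with the pair and 146 without it. Within set D, where carcinomas 1 to 4 faced normal skin 2 alone and that skin was assumed to vary like the other groups, 82 probes were called, 6 higher and 76 lower. All 205 of the 219 calls that had a value there kept their sign. The arrays of set D also entered the fit that made the calls, so that agreement was partly set in advance. Within set C none was called by limma and 23 probes had an unadjusted p under 0.05, but this contrast sets carcinomas 5 and 6 against the near-copy of carcinoma 6.

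Among proteins of activated epidermis, the calprotectin subunits S100a8 and S100a9, which bind calcium and zinc and are abundant in neutrophils and stressed keratinocytes, gave some of the largest differences. S100a9 was measured on 9 of the 12 arrays, with 3.56, 3.46, 1.75 and 3.74 in carcinomas 1 to 4, against 0.21, -1.09, -1.27, -2.05 and -1.89 in normal skins 2 to 6. The lowest carcinoma was above the highest normal skin. S100a9 rose by 4.35 ± 0.57 on the log2 scale (SE), or 20.3-fold, with a limma adjusted p of 0.000158, and the difference within set D was 2.92 with an adjusted p of 0.366. S100a8 ran from 1.84 to 5.17 with a median of 3.84 in 6 carcinomas, against -0.58 to 3.71 with a median of 0.16 in 6 normal skins. The 3.71 belongs to the library labelled normal skin 1, and all other normal skins lay below every carcinoma. The S100a8 difference of 2.94 ± 0.77 missed the threshold with the pair (limma adjusted p = 0.0523) and passed without it, at 3.24 ± 0.75 (adjusted p = 0.0141). Within set D the S100a8 difference was 2.75 and not called (adjusted p = 0.414).

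Both genes lie near each other on chromosome 3, and their promoters are shown because the 2 subunits work as 1 complex and both were higher in carcinomas 1 to 4. The windows run from 250 bases before to 50 bases after the start site in RefSeq's GRCm38.p6, S100a8 at chr3:90668821-90669120 on the plus strand and S100a9 at chr3:90695672-90695971 on the minus strand. Capitals mark TATAAA, the TATA box letters, found by a search of both strands. The match begins 30 bases before the start site in S100a8 and at the start site itself in S100a9.
S100a8: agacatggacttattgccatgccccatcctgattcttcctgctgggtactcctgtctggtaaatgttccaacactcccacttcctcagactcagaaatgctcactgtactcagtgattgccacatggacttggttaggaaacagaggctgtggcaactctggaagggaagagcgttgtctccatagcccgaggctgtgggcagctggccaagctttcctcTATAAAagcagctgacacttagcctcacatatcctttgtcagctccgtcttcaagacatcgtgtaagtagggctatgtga
S100a9: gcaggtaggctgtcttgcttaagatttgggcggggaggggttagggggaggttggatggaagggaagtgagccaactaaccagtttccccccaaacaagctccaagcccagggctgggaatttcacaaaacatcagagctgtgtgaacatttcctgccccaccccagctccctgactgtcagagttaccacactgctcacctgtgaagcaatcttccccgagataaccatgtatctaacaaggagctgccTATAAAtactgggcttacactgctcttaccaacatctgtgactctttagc
Of the 27 named genes called higher that have a window in the table, 8 hold TATAAA (29.6%), against 10.7% of the windows of 10589 genes tested and 14.2% of all 27025. Without the pair the share among genes called higher was 15 of 86 (17.4%). The AP-1 letters TGANTCA occur in neither calprotectin window, and in 7.93% of all windows. These are descriptions of letters, not of binding.

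The list of hyperproliferation keratins, small proline-rich proteins and S100 proteins held 29 tested genes out of 35 written. Of these 25 were higher by value and 1, S100a9, was called, beside 0.254% called higher over all probes. The median difference of the list was 0.78, beside -0.00 over all probes tested. Without the pair 4 members were called, all higher, and the median was 0.83. That median was 0.95 within set D, and 0.28 with the range of database number as a term and the pair left out. Lce3c, a late cornified envelope protein made in injured epidermis, is counted in the cornified envelope list and not in this one. It had 0.21 to 4.33 with a median of 3.38 in carcinomas, against -0.10 to 4.37 with a median of 0.18 in normal skins. Its top value among normal skins came from the library labelled normal skin 1. The Lce3c difference of 2.21 ± 0.76 was not called (limma adjusted p = 0.173), and without the pair it was 2.66 (adjusted p = 0.0363). Sprr2f, a small proline-rich envelope protein, was likewise called only without the pair, at 2.58 ± 0.62 with a limma adjusted p of 0.0187. The stress keratin Krt6a did not separate the groups, at 2.03 to 4.24 in carcinomas and 2.58 to 4.27 in normal skins. Krt5, the basal keratin, was far above the reference pool in both, at 2.96 to 4.98 in 4 carcinomas and 2.24 to 3.44 in 6 normal skins.

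Keratin 15, a type I keratin of basal cells and of the hair follicle bulge where stem cells reside, fell strongly. Krt15 ran from -2.53 to -0.23 with a median of -1.37 in carcinomas, against -0.25 to 3.07 with a median of 2.01 in normal skins. The groups overlapped only through the library labelled normal skin 1, which had the -0.25. Krt15 fell by 3.00 ± 0.65 on the log2 scale, 8.01-fold, with a limma adjusted p of 0.0151, and the difference was -3.60 without the pair and -3.10 within set D (adjusted p = 0.147). Of 7 tested epidermal keratins Krt15 alone was called, beside 0.905% called lower over all probes. By value 6 were lower, with a median of -0.92. Krt2, a keratin of the upper epidermis, differed by -1.34 ± 0.38 with the pair (limma adjusted p = 0.0838) and by -1.60 without it (adjusted p = 0.0268). Among 31 tested genes of 43 written, the cornified envelope list, which holds loricrin, filaggrin and their partners, had no limma call with the pair. Its median was -0.50. Without the pair 1 member was called, Lce3c described above, and it was higher. By value 21 members were lower, and at an unadjusted p under 0.05 there were 5 lower and 1 higher. After scale normalization of the arrays that median was -0.06. Lce1a1 of that list had 0.83 to 3.30 in carcinomas, against 3.45 to 4.79 in normal skins, without overlap, but its difference of -1.91 ± 0.62 missed the threshold (limma adjusted p = 0.143). Cst6, an inhibitor of the proteases that act on the cornified layer, ran from 0.34 to 4.15 in carcinomas, against 1.70 to 6.57 in normal skins. It was called only without the pair, at -3.70 ± 1.03 with a limma adjusted p of 0.047.

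Hair follicle genes that passed the test were all lower in carcinomas. Of 24 tested members out of 44 written, 4 were called lower and none higher, 20 were lower by value and the median was -0.94. Over all probes tested 0.905% were called lower and 9489 of 18904 were lower by value. The called members were Krt34 and Krt33a, keratins of the hair shaft, Krt71, a keratin of the inner root sheath, and Krtap14, a keratin-associated protein of the shaft. Krt34 ran from -0.54 to 1.65 with a median of 0.13 in carcinomas, against -0.07 to 3.99 with a median of 3.32 in normal skins. Normal skins 2 to 6 all lay above the highest carcinoma, which was carcinoma 2. Krt34 fell by 2.52 ± 0.53, or 5.72-fold, with a limma adjusted p of 0.0129. The difference was -3.03 without the pair and -3.06 within set D, where it was not called (adjusted p = 0.0684).

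Krt33a had -0.54 to 0.36 in carcinomas, against 0.47 to 3.70 in normal skins, and the groups did not overlap. It fell by 2.02 ± 0.43 on the log2 scale (limma adjusted p = 0.0136), and within set D the difference was -2.53 (adjusted p = 0.0214). Without the pair it was -2.40. Krt71 was measured in 5 carcinomas, at -1.56, -0.50, -1.43, -0.49 and 0.38, and in 4 normal skins, at 2.78, 2.26, -0.16 and 1.81. Only normal skin 5, with -0.16, lay among the carcinomas. Krt71 fell by 2.40 ± 0.53 (limma adjusted p = 0.0221), and within set D the difference was -3.78 (adjusted p = 0.0211). Neither array of the near-identical pair has a Krt71 value. Krtap14 fell by 1.32 ± 0.31 (limma adjusted p = 0.0296), and its difference was -1.58 without the pair and -1.70 within set D (adjusted p = 0.231).

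The promoters of Krt34, at chr11:100041505-100041804, and Krt71, at chr15:101743048-101743347, both on the minus strand of GRCm38.p6, are shown as 2 members of different follicle layers that fell together. Capitals again mark TATAAA.
Krt34: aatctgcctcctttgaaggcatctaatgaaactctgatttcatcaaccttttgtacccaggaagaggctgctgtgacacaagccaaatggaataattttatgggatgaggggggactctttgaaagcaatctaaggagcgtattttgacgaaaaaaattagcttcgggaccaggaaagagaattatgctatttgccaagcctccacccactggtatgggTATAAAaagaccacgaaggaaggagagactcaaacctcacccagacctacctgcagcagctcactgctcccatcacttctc
Krt71: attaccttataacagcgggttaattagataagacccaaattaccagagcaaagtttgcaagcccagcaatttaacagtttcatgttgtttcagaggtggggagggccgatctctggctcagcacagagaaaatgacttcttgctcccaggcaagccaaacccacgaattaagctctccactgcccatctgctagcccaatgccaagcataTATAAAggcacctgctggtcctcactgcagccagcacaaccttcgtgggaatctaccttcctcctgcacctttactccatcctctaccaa
Among the 89 named genes called lower with a window, 14 hold these letters (15.7%).

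Other shaft genes, chosen after their values were seen or by size, were also lower by value. Krtap22-2, a hair keratin-associated protein, ran from -0.57 to 0.31 in carcinomas, against 0.16 to 4.43 in normal skins, and fell by 2.25 ± 0.50 (limma adjusted p = 0.0199). Krtap5-4, chosen after its values were seen, fell by 1.64 ± 0.35 (limma adjusted p = 0.0129). Krt33b, also chosen that way, was called only without the pair, with a difference of -2.71 ± 0.61 (limma adjusted p = 0.0132). The mean level of the 24 tested follicle genes ran from -0.05 to 0.44 in carcinomas, against 0.25 to 2.20 in normal skins. Normal skins 2 and 6 were the highest and the library labelled normal skin 1 the lowest. Normal skin 2 is the only one in set D, so the within-set differences of follicle genes rest on a skin with a high follicle level. The share of the follicle in other differences was not tested.

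**Figure D3:**
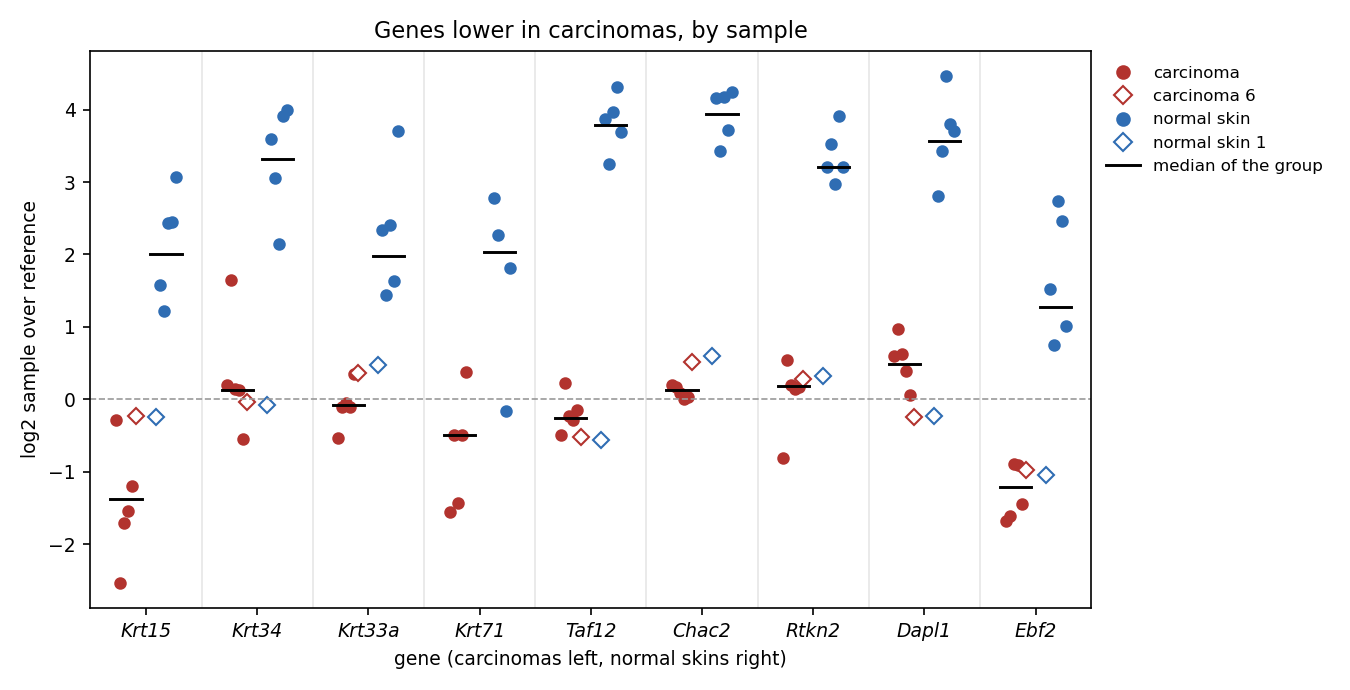
Log2 tissue over reference for 9 genes called lower in carcinomas, 1 point per array, with carcinomas in red on the left of each gene, normal skins in blue on the right, bars at the group medians and open diamonds for the near-identical pair. Normal skins 2 to 6 lay above all carcinomas for Krt15, Krt34, Krt33a, Taf12, Chac2, Rtkn2, Dapl1 and Ebf2, while normal skin 1, where measured, lay among the carcinomas or just above them, and for Taf12 below all of them.

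In the sebaceous and lipid synthesis list 1 of 19 tested genes was called, Elovl5, an elongase of polyunsaturated fatty acids, beside 0.905% called lower over all probes. Elovl5 ran from -1.16 to 0.41 in carcinomas, against 0.44 to 1.23 in normal skins, and fell by 1.13 ± 0.29 (limma adjusted p = 0.0433). Those groups did not overlap, and the Elovl5 difference was -1.34 without the pair and -2.06 within set D (adjusted p = 0.0679). Of 16 tested adipocyte genes 1 was called, Lep, the gene of the fat hormone leptin, which fell by 0.89 ± 0.21 (limma adjusted p = 0.0296) and did not overlap, at 0.05 to 0.61 in carcinomas and 0.73 to 1.39 in normal skins. Its difference was -1.04 without the pair and -1.03 within set D (adjusted p = 0.375). The fatty-acid carrier Fabp4 of the same list differed by 1.91 ± 0.68 in the opposite direction and was not called (limma adjusted p = 0.201). Adipoq, the gene of the fat hormone adiponectin, was not called but also higher by value. It had -0.72 to -0.51 in 4 carcinomas, against -3.69 to -1.40 in 5 normal skins. By value 5 adipocyte genes were higher and 11 lower, with a median of -0.30. At an unadjusted limma p under 0.05 there were 2 higher and 2 lower. None of 22 tested skeletal muscle genes was called by limma, and 2 were lower at an unadjusted p under 0.05. Tnnc2, a troponin of fast muscle, spread from -0.22 to 4.43 among the normal skins, against -0.25 to 1.06 in carcinomas.

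Some of the largest falls were genes outside the skin lists. Taf12, a subunit of the general transcription factor TFIID, ran from -0.52 to 0.22 with a median of -0.25 in carcinomas, against -0.57 to 4.32 with a median of 3.78 in normal skins. All of normal skins 2 to 6 had 3.25 or more, and the library labelled normal skin 1 had the -0.57. Taf12 fell by 3.33 ± 0.52 (limma adjusted p = 0.000576) with the pair and the difference was -4.0 ± 0.35 without it (adjusted p = 2.09e-08). Chac2, an enzyme that breaks down glutathione, had 0.00 to 0.51 in carcinomas, against 0.59 to 4.24 in normal skins, with no overlap. It fell by 3.22 ± 0.44, 9.32-fold, at a limma adjusted p of 0.000102. Rtkn2 fell by 2.77 ± 0.38 at the same adjusted p. Without the pair the differences were -3.85 for Chac2 and -3.32 for Rtkn2.

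Within set D, where the single normal skin was assumed to vary like the other groups, the differences were -4.07 for Taf12, -4.05 for Chac2 and -3.19 for Rtkn2, with limma adjusted p-values of 0.00916, 0.00865 and 0.0339. With array set as a term and the pair kept, Chac2 was called (adjusted p = 0.0283), and Taf12 and Rtkn2 were not (adjusted p = 0.12 and 0.0652). With the pair left out of that fit all 3 were called (adjusted p = 6.67e-05 to 8.14e-05). Prrg2, a membrane protein with a vitamin K dependent domain, fell by 2.71 ± 0.38 (limma adjusted p = 0.000109), and its second probe differed by -1.22. Ebf2, a transcription factor of mesenchymal and fat precursors, had -1.68 to -0.90 in carcinomas, against -1.04 to 2.73 in normal skins, and fell by 2.49 ± 0.50 (limma adjusted p = 0.0103). Dapl1, a protein found in differentiating epithelia, fell by 2.60 ± 0.55 (limma adjusted p = 0.0127). Reg3b, an antimicrobial lectin, fell by 2.29 ± 0.51 (limma adjusted p = 0.0224). Phyhd1, a dioxygenase domain protein, and Tssk6, a kinase of the testis, fell by 2.70 and 2.32 on the log2 scale. Within set D Prrg2, Ebf2 and Phyhd1 were called, and Dapl1, Reg3b and Tssk6 were not (adjusted p = 0.0614, 0.133 and 0.197). None of these 6 was called with array set as a term and the pair kept.

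Emx1, a homeobox gene best known from the cortex, was measured in 5 carcinomas at 0.14, 0.14, -0.17, 0.10 and -0.42, against 2.72, 1.98, 3.15, 3.41 and 3.13 in normal skins 2 to 6. The groups were far apart, with a difference of -2.92 ± 0.28 (limma adjusted p = 3.12e-06). Within set D, with 1 normal skin, the difference was -2.67 (adjusted p = 0.018). Ppat, an enzyme of purine synthesis, fell by 2.28 ± 0.42 (limma adjusted p = 0.0049), but another probe of the gene differed by 0.47. Fli1, a transcription factor of vessels and blood cells, and Fam20c, a kinase of secreted proteins, each fell by 2.25 on the log2 scale, with limma adjusted p-values of 0.0127 and 0.014. A second Fli1 probe differed by only -0.18. Tnp2, which packs sperm DNA, lay far below the reference pool in both groups, at -6.24 to -4.01 in carcinomas and -5.21 to -1.95 in normal skins, and fell by 2.31 ± 0.60 (limma adjusted p = 0.0489).

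Among genes of inflammation, Ppbp, a chemokine stored in platelets that attracts neutrophils, had 3.71, 3.21, 3.11 and 2.11 in carcinomas 1 to 4, against -0.33, -1.0, -0.46, -0.34 and -0.55 in normal skins 2 to 6. The groups were separated by more than the spread within either. Ppbp rose by 3.57 ± 0.33, 11.9-fold, with a limma adjusted p of 1.55e-06, and within set D the difference was 3.36 (adjusted p = 0.0439). Of the 25 tested genes of the neutrophil and chemokine list Ppbp alone was called, beside 0.254% called higher over all probes. By value 17 were higher, and the median was 0.50. That median was 0.24 within set D, and 0.07 with the range of database number as a term and the pair left out. Csf3r, the receptor for the neutrophil growth factor G-CSF, was called only without the pair, at 1.77 ± 0.46 (limma adjusted p = 0.0365). None of 23 tested macrophage genes was called by limma with the pair, 4 higher and 3 lower having an unadjusted p under 0.05, and 1, Cx3cr1, was called without it. That chemokine receptor of monocytes and Langerhans cells ran from -0.52 to 0.87 in 5 carcinomas, against -0.15 to 2.59 in 5 normal skins, and differed by -2.09 ± 0.42 (limma adjusted p = 0.00557).

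Arginase 1, which splits arginine and is made by myeloid cells and by keratinocytes, was among the largest rises. Arg1 ran from 2.27 to 4.45 with a median of 4.18 in carcinomas, against -1.03 to 4.27 with a median of 0.37 in normal skins. The library labelled normal skin 1 had the 4.27, and the other skins had at most 0.85. Arg1 rose by 2.92 ± 0.66, 7.58-fold, with a limma adjusted p of 0.0215, and the difference was 3.47 without the pair and 3.41 within set D (adjusted p = 0.0568).

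B2m, the invariant chain of MHC class I, ran from -2.25 to -0.46 with a median of -1.31 in carcinomas, against -0.55 to 0.65 with a median of 0.28 in normal skins. It fell by 1.43 ± 0.37 (limma adjusted p = 0.049), with a difference of -1.72 without the pair and -2.04 within set D (adjusted p = 0.242). B2m was the only call among 32 tested genes of the interferon and class I list, beside 0.905% called lower over all probes. The median of that list was -0.09. H2-Q7 and H2-M3, class I heavy chains chosen after their values were seen, fell by 1.42 ± 0.36 and 1.24 ± 0.32, with limma adjusted p-values of 0.0422 and 0.0496. Neither was called within set D. Class I genes are close copies of each other, and a probe may bind more than 1. The classical heavy chain H2-K1 had -0.01 to 0.62 in carcinomas, against 0.68 to 3.38 in normal skins, without overlap but not called (limma adjusted p = 0.13). Limma made no call among 21 T cell and NK cell genes with the pair, where 2 higher and 2 lower had an unadjusted p under 0.05. The T cell adhesion molecule Cd2 was called without it, at 1.94 ± 0.53 (limma adjusted p = 0.0407). By value 12 of the 21 genes were higher and 9 lower, with a median of 0.08. The T cell marker Cd3e went the other way from Cd2, at -0.09 to 0.24 in carcinomas and 0.24 to 0.86 in normal skins.

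A globin transcript was higher in the tumours. Hbb-b2, a beta-globin chain of red cells with close copies that its probe may not tell apart, lay below the reference pool everywhere, at -3.40 to -0.38 with a median of -2.05 in carcinomas, against -6.03 to -3.20 with a median of -5.72 in normal skins. Every one of normal skins 2 to 6 was below the lowest carcinoma. Hbb-b2 rose by 3.34 ± 0.73, 10.2-fold, with a limma adjusted p of 0.0167, and the difference was 4.05 without the pair and 3.98 within set D (adjusted p = 0.0684). Over all probes 0.254% were called higher, and of 7 tested red cell genes 1 was called and all 7 were higher by value. Their mean level ran from -0.94 to -0.16 in carcinomas, against -2.28 to -0.67 in normal skins. The median difference of these 7 genes was 0.61, but 0.24 within set D and 0.14 with array set as a term. Hba-a1, the alpha-globin, was called only without the pair, at 2.05 ± 0.57 (limma adjusted p = 0.0473). How far blood in the tissue moves with the other differences was not tested.

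**Figure D4:**
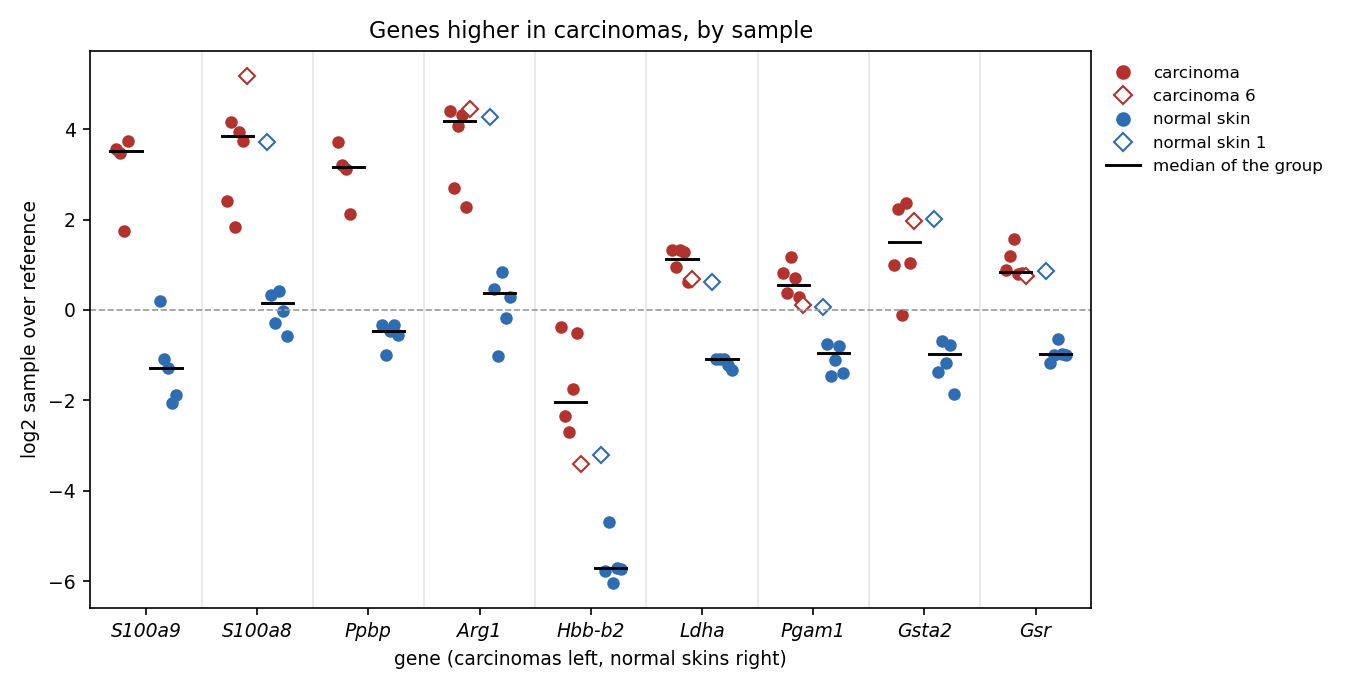
Log2 tissue over reference for 9 genes higher in carcinomas, drawn as in the plot of falls, with carcinomas in red on the left of each gene and normal skins in blue on the right. S100a9 and Ppbp have no value for the near-identical pair, S100a8 missed the threshold with the pair, and the open blue diamond of normal skin 1 lies beside the carcinomas for Arg1, Ldha, Gsta2 and Gsr.

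Ldha, the lactate dehydrogenase subunit that turns pyruvate to lactate, ran from 0.62 to 1.33 with a median of 1.12 in carcinomas, against -1.32 to 0.61 with a median of -1.09 in normal skins. Normal skins 2 to 6 lay between -1.32 and -1.08, a narrow band, and the groups did not overlap. Ldha rose by 1.89 ± 0.36, 3.72-fold, with a limma adjusted p of 0.00609, and the difference was 2.26 without the pair and 2.30 within set D (adjusted p = 0.0459). Pgam1, a phosphoglycerate mutase of lower glycolysis, had 0.12 to 1.16 in carcinomas, against -1.47 to 0.06 in normal skins, and rose by 1.49 ± 0.34 (limma adjusted p = 0.0235). The Pgam1 difference was 1.77 without the pair and 1.52 within set D (adjusted p = 0.291). Of 26 tested genes of the glycolysis and hypoxia list these 2 were called, beside 0.254% called higher over all probes, 18 were higher by value and the median was 0.33. That median was 0.07 within set D, and 0.02 with the range of database number as a term and the pair left out.

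Without the pair the list had 3 calls higher and 2 lower. Pgk1, phosphoglycerate kinase, chosen after its values were seen, differed by 1.89 ± 0.49 and was called without the pair (limma adjusted p = 0.0353). Pkm, pyruvate kinase, also chosen that way, went the other way, with -0.28 to 0.77 in carcinomas, against -0.37 to 3.26 in normal skins. Its difference was -2.08 ± 0.43 without the pair (limma adjusted p = 0.00497) and -1.72 with it (adjusted p = 0.0521).

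The promoters of Ldha, at chr7:46845554-46845853, and Pgam1, at chr19:41911621-41911920, both on the plus strand of GRCm38.p6, are shown because both genes are known targets of hypoxia-inducible factor and both rose. Capitals mark ACGTG, the core letters of the hypoxia response element, on either strand, and where matches on both strands overlap they run together. The table holds 2 windows for Ldha, of which the first is given.
Ldha: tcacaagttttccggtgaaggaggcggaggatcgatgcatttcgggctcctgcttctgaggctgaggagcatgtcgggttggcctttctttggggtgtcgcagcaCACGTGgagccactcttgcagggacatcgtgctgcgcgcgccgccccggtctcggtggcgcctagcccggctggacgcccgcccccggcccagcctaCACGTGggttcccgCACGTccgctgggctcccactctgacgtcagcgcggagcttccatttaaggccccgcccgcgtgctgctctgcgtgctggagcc
Pgam1: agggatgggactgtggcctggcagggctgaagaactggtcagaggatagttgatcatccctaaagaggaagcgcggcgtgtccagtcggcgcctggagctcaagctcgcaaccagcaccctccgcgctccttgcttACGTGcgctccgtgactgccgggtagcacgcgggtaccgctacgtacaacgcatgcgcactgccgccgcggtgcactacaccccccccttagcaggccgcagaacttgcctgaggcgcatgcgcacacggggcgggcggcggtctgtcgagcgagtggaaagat
ACGTG occurs in 10 of the 27 windows of genes called higher (37%), in 17 of the 89 of genes called lower (19.1%) and in 23.2% of those of all genes tested. With the pair left out, 25 of 86 windows of genes called higher held it (29.1%).

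Enzymes that handle toxic compounds and oxidants included 2 calls among 38 tested, both higher, beside 0.254% called higher over all probes. The median of the list was 0.18. Gsta2, a glutathione transferase that couples glutathione to electrophiles, ran from -0.11 to 2.36 with a median of 1.49 in carcinomas, against -1.85 to 2.01 with a median of -0.97 in normal skins. The library labelled normal skin 1 had the 2.01 and all other skins lay below the lowest carcinoma. Gsta2 rose by 2.05 ± 0.53, 4.13-fold, with a limma adjusted p of 0.049, and the difference without the pair was 2.47 (adjusted p = 0.00384) and within set D 2.74 (adjusted p = 0.295). Gsta1 is a close copy of Gsta2 that its probe may not tell apart, and it was called only without the pair, at 2.60 ± 0.57 (limma adjusted p = 0.00924). Gsr, which restores reduced glutathione, had 0.74 to 1.57 in carcinomas, against -1.16 to 0.86 in normal skins. It rose by 1.65 ± 0.37, 3.14-fold, with a limma adjusted p of 0.0196. The high end of normal skin was normal skin 1 at 0.86, the others having -0.64 or less. The Gsr difference was 2.0 without the pair and 2.28 within set D (adjusted p = 0.167).

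Related genes outside the list were also called. Ugt2b37, which adds glucuronic acid to lipophilic compounds, had -0.64 to 0.53 in carcinomas, against -2.90 to -0.75 in normal skins, and rose by 2.11 ± 0.41 (limma adjusted p = 0.00742). Those groups did not overlap, and the difference was 2.51 without the pair and 2.30 within set D (adjusted p = 0.106). Esd, an esterase that acts on glutathione adducts, rose by 1.80 ± 0.37 (limma adjusted p = 0.0107) and the difference was 2.17 without the pair and 2.28 within set D (adjusted p = 0.0459). Ftl1, the light chain of the iron store ferritin, rose by 1.89 ± 0.38 (limma adjusted p = 0.0107), with -1.58 to 0.49 in carcinomas, against -3.06 to -1.61 in normal skins. Its difference was 2.26 without the pair and 2.48 within set D (adjusted p = 0.0722). Nfe2l2, the transcription factor Nrf2 that drives many antioxidant genes, was chosen after its values were seen. It differed by 1.37 ± 0.45 with the pair (limma adjusted p = 0.149) and by 1.67 without it (adjusted p = 0.0404). TGACNNNGC, the core letters of the antioxidant response element, occur in neither the Gsta1 nor the Gsta2 promoter window. They occur in 1 of 27 windows of genes called higher (3.7%), against 13.9% for genes tested. Without the pair the share among genes called higher was 15 of 86 (17.4%). Binding was not tested.

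Among the other large rises, Ly6e, a membrane protein of the Ly6 family, had -0.07 to 2.15 in carcinomas, against -1.25 to -0.05 in normal skins, and rose by 1.69 ± 0.35 (limma adjusted p = 0.0127). The overlap was confined to the near-identical pair. Rubcn, a regulator of autophagy, rose by 1.67 ± 0.35 at the same adjusted p, with no overlap between groups. Taar1, a receptor for trace amines, rose by 1.75 ± 0.42 (limma adjusted p = 0.0323). Pibf1, a centrosome protein, rose by 2.27 ± 0.59 (limma adjusted p = 0.0484), while its other probe differed by -0.19. All 4 were called without the pair and none within set D (adjusted p = 0.123 to 0.386). Without the pair the calls of large size also took in Olfr29-ps1, an olfactory receptor pseudogene, at 3.01 ± 0.76 (limma adjusted p = 0.028), and Rps6kb2, an S6 kinase, at 2.53 ± 0.65 (adjusted p = 0.0311).

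Birc5, the inhibitor of apoptosis survivin that also serves in cell division, had -0.43 to 0.84 with a median of 0.15 in carcinomas, against -1.34 to 0.01 with a median of -0.87 in normal skins. Birc5 rose by 0.96 ± 0.24 (limma adjusted p = 0.0433) and was the only call among 42 tested cell cycle genes, whose median was 0.11, beside 1.16% called over all probes. Its difference was 1.15 without the pair and 0.77 within set D, where it was not called (adjusted p = 0.724). Racgap1, a regulator of cytokinesis, differed by -1.30 ± 0.36 and was called without the pair (limma adjusted p = 0.047). Cyclin D1, Ccnd1, chosen after its values were seen, had 0.73 to 1.76 in carcinomas, against -0.49 to 1.17 in normal skins, and was called only without the pair, at 1.52 ± 0.42 (limma adjusted p = 0.0435). In the EGF receptor, Ras and immediate-early list, 1 of 36 tested genes was called with the pair, the arginase gene Arg1 described above, which is not a kinase or a transcription factor. Spry1, an inhibitor of receptor kinase signalling, was called lower without the pair, at -1.32 ± 0.33 (limma adjusted p = 0.0239). No gene of the TGF-beta list was called by limma among 22, with 1 higher at an unadjusted p under 0.05 and a median of 0.02.

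Ndufa4, a subunit of the respiratory chain, had 0.91 to 1.59 in carcinomas, against -1.01 to 1.70 in normal skins, and rose by 1.54 ± 0.39 (limma adjusted p = 0.0443), with 1.36 within set D (adjusted p = 0.251). It was the only call among 59 tested genes of oxidative phosphorylation, beside 0.254% called higher over all probes. The median of that list was 0.22, but -0.06 within set D, so no direction is given for it. The same holds for the cytosolic ribosomal proteins, with no limma call among 58, 4 higher at an unadjusted p under 0.05, a median of 0.16 and of -0.20 within set D.

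Invasion and stroma genes were mostly higher by value without passing the test. None of 17 collagens, 29 matricellular and mesenchymal genes or 26 genes of the metalloproteinase and urokinase list was called by limma with the pair. At an unadjusted p under 0.05, 6, 3 and 6 of them were higher and none lower, and the medians were 0.17, 0.44 and 0.38. Col1a2, a chain of type I collagen, ran from -2.0 to 1.37 in carcinomas, against -3.29 to -1.81 in normal skins, and differed by 2.12 ± 0.66 (limma adjusted p = 0.117). Col5a3, a minor fibrillar collagen chain, was called only without the pair, at 2.52 ± 0.67 (limma adjusted p = 0.0363). Mmp3, a protease that cuts matrix, was likewise called only without it, at 1.64 ± 0.44 (limma adjusted p = 0.0393).

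Adhesion genes differed in part. None of 15 tested hemidesmosome and basement membrane genes was called by limma with the pair, 1 higher and 2 lower having an unadjusted p under 0.05. Lama5 and Lama3, laminin chains of the basement membrane, were lower without it. Lama5 had -0.06 to 0.76 in 5 carcinomas, against 0.91 to 2.07 in 5 normal skins, with no overlap and a difference of -1.21 ± 0.32 (limma adjusted p = 0.0393). Lama3 differed by -2.12 ± 0.54 (limma adjusted p = 0.0274), and its probes disagreed. E-cadherin, Cdh1, was not called, at 0.09 to 1.97 in carcinomas and -0.30 to 1.42 in normal skins. Keratins of simple epithelia, which squamous tumours can gain on progression, had no limma call among 9 with the pair and a median of 0.57, with 8 higher by value and 4 of them at an unadjusted p under 0.05. Krt4, a keratin of mucosal squamous epithelium in that list, was called without the pair, at 2.12 ± 0.55 (limma adjusted p = 0.0311).

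**Figure D5:**
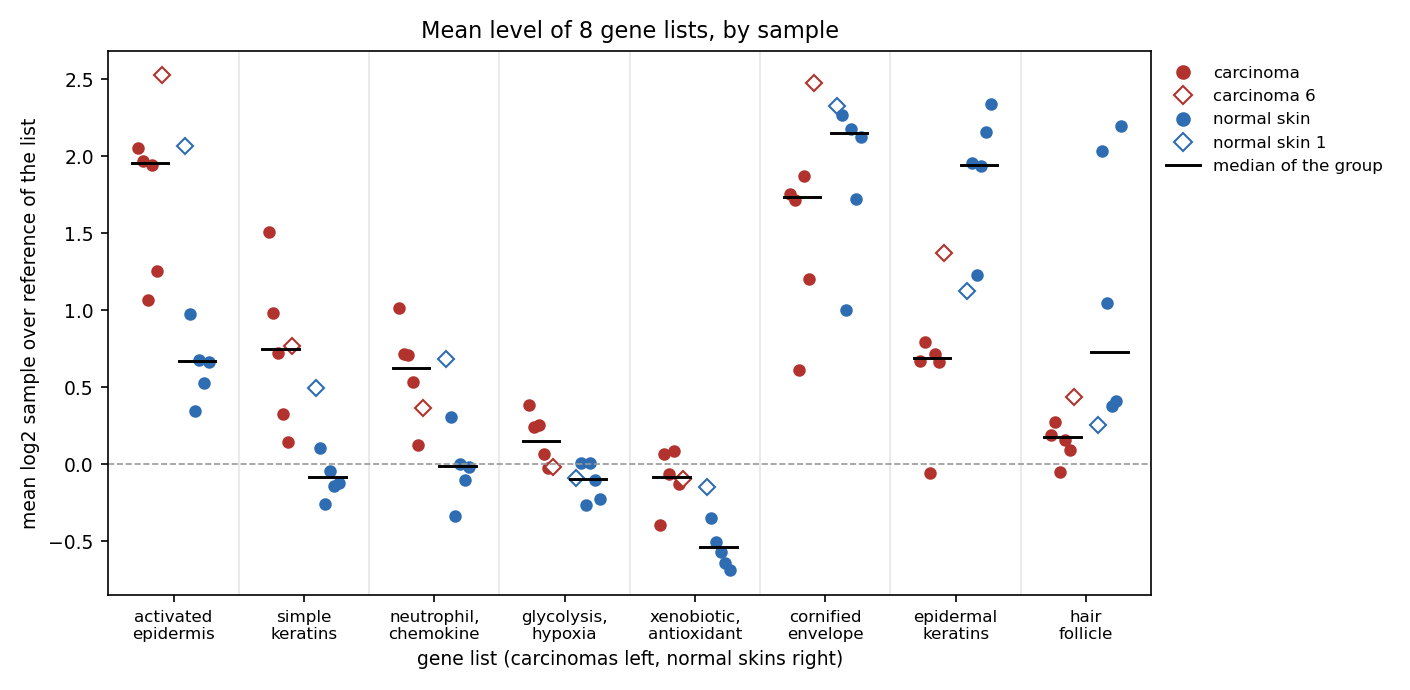
Mean log2 tissue over reference of the tested members of 8 gene lists, 1 point per array, with carcinomas in red on the left of each list, normal skins in blue on the right, bars at the group medians and open diamonds for the near-identical pair. For activated epidermis, carcinomas ran from 1.07 to 2.53 and normal skins from 0.35 to 2.07, the top value being normal skin 1, and for hair follicle genes carcinomas ran from -0.05 to 0.44 and normal skins from 0.25 to 2.20.

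Lists of other tissues and cell types gave few or no calls. With the pair none was called among 16 desmosome and adherens junction genes, 11 of B cells, 14 of dendritic cells and MHC class II, 13 of mast cells, 17 of endothelium, 10 of melanocytes and nerve, 21 of the eicosanoid pathway or 26 regulators of innate skin defence and rhythm. Each of these lists had at most 2 genes in either direction at an unadjusted limma p under 0.05, and the dendritic cell list had 0. Over the 14 dendritic cell and class II genes, 12 were lower by value and the median was -0.34. Of the 17 endothelium genes 11 were higher by value and 6 lower, with a median of 0.14. Pecam1, an endothelial marker, was among the lower ones. It had -0.59 to 0.48 in carcinomas, against 0.01 to 1.96 in normal skins, and was not called (limma adjusted p = 0.313). Mitf, the transcription factor that directs melanocytes, was called without the pair, at -1.83 ± 0.40 (limma adjusted p = 0.009), and its probes disagreed. Of 20 genes of liver, brain and testis the sperm gene Tnp2 alone was called, beside 0.905% called lower over all probes. The Y-linked gene Eif2s3y, which has a close copy on the X chromosome, had 0.46 to 1.73 in the carcinomas labelled female, against -0.13 to 1.70 in normal skins, and differed by 0.32 ± 0.41 (limma adjusted p = 0.897).

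The means of the papilloma groups are set beside some of these genes as values, with no test between tumours. S100a9 averaged 4.40 in low-risk and 4.96 in high-risk papillomas, above each of the 4 carcinomas measured. Ppbp averaged 0.36 and 1.01 in these papillomas, between the values of carcinomas and those of normal skins. Krt34 averaged 0.77 in low-risk and -0.47 in high-risk papillomas, and Taf12 0.35 and -0.12. For Ldha the means were 0.48 and 0.36, and for Arg1 3.91 and 3.70.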

How the data were processed

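The authors deposited log2 ratios of the 2 channels per probe, made from scanner data not analysed here. The normalization and spot filters are not given in the sources used here, and neither is the direction of the ratio. Per the labels, tissue RNA was in Cy3 on the 12 arrays compared, so the sign was changed, and each array was centred on its median. The members, gene lists and naming rules were chosen with earlier results of these data known.

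Probes were named from the platform annotation, where 16076 of 21997 had 1 symbol, 288 several and 5633 none. A probe was tested when measured in at least 3 replicates of each of 4 groups and in at least 70% of 31 replicates, and 1 probe per symbol was kept, which gave 18904 probes and 13465 genes. Carcinomas, normal skins and both papilloma groups were fitted together with limma 3.58.1 in R 4.3.3, with Benjamini-Hochberg adjustment over all probes at a threshold of 0.05. The dye-swapped papilloma array was averaged with its partner. Named genes were the 12 largest rises and falls among calls measured on all 12 arrays, up to 4 called members of each of 34 lists or the 2 with the smallest p, and the 6 largest rises and falls called without the near-identical pair. Other genes, said to be so where they are named, were chosen after their values were seen. Lists got no test. The fit was tested on simulated data. Alternatives covered scaling, filters, other samples in the fit and terms for array set, database number and replicate number. Promoter windows came from RefSeq. Figures and tables used matplotlib 3.10.9, numpy 2.4.6, pandas 2.3.3 and scipy 1.17.1.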

Additional observations from a re-analysis of the deposited data

Results flagged for a closer look

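Among the 110 named genes, 219 groups of 4 to 6 samples were searched for a highest or lowest sample that stood apart from the rest by a large share of the group's range, and 32 such samples were found. For independent groups chosen without regard to their values, chance alone would mark about 1 in 20. The named genes were chosen by these same values, some only through calls with the near-identical pair left out. They also share the same arrays, so that rate is no yardstick for the count. The library labelled normal skin 1 accounted for 21 of the 32. It was the highest of the normal skins for Arg1 at 4.27, Gsta2 at 2.01, Ldha at 0.61, Esd at 1.27, Gsr at 0.86, S100a8 at 3.71, Olfr29-ps1 at 2.52, Lce3c at 4.37 and Gsta1 at 2.32. It was also the highest for Rps6kb2 at -1.45, Ndufa4 at 1.70, Slpi at 3.80 and Ccnd1 at 1.17. It was the lowest for Taf12 at -0.57, Chac2 at 0.59, Rtkn2 at 0.32, Prrg2 at 0.48, Dapl1 at -0.23, Cst6 at 1.70, Lep at 0.73 and Mitf at -1.08. In each of these genes it lay on the side of the carcinomas. Slpi, a secreted protease inhibitor chosen after its values were seen, had 1.17 to 4.58 in carcinomas, against -1.02 to 3.80 in normal skins.

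The remaining 11 fell on other arrays. Among carcinomas, carcinoma 1 was the lowest for Rtkn2 at -0.81 and the highest for Pkm at 0.77, and carcinoma 2 the highest for Krt34 at 1.65. Carcinoma 3 was the lowest for Sprr2f at -2.88, S100a9 at 1.75 and Dsc1, a desmosome cadherin, at -0.86, and the highest for Lgals1, a stromal lectin, at 1.03. Carcinoma 5 was the highest for Tnp2 at -4.01 and the lowest for Lama5 at -0.055. Normal skin 3 was the lowest of its group for Lama5 at 0.91 and normal skin 2 the highest for Elovl5 at 1.23.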

How the results depend on the processing

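With the near-identical pair left out, the calls numbered 484 in place of 219, and leaving out 1 array at a time gave 70 to 549. The count was 549 without normal skin 1, 70 to 145 without normal skins 2 to 6 and 92 to 129 without carcinomas 1 to 4. Fits of the 2 groups alone, in which papillomas did not enter the spread, called 691 (251 higher, 440 lower) and 2115 without the pair. Scale normalization called 715 (274 higher, 441 lower), quantile normalization 890 (366 higher, 524 lower) and array weights 3454 (1624 higher, 1830 lower), against 48 higher and 171 lower in the fit reported, so the split depends on these choices. Range of database number as a term gave 18 calls and 423 without the pair, within the higher range 7 and 73 without the pair, and against normal skins 3 to 6 alone 500. Array set as a term gave 10 calls and 146 without the pair, and within set D there were 82 and within set C 0. The other settings, which were no centring, both filters, mean of probes, robust variances and the swapped array left out, gave 157 to 218. Those without the pair by array set, within the higher range and by replicate block were chosen after seeing the data.

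The labels do not say that replicate numbers pair the samples. Same-numbered samples correlated at -0.274 to 0.103 after group means were removed, against a median of 0.0177 for other pairs. These values cannot decide on pairing, because most same-numbered samples lay in different array sets. With replicate number as a block 256 probes were called, 118 of them among the 219, and 378 without the pair.

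All 219 calls kept their sign under each setting above in which they had a value, except within set C (104 of 165) and the higher range with the pair (214 of 217). These settings reuse the arrays that made the calls, so that agreement was partly set in advance. In set C these named genes turned below 0: Arg1 -0.91, Pibf1 -0.045, Gsta2 -0.51, Esd -0.0555, Taar1 -0.003, Gsr -0.0825, Olfr29-ps1 -1.13, Lce3c -0.69, Gsta1 -0.49, Sprr2f -0.45, Cdh1 -0.30, Krt4 -0.46, Krt12 -0.0275, Col5a3 -0.0865, Col1a2 -0.0195, Mmp3 -0.31, Cd2 -0.33, Ndufa4 -0.45, Lta4h -0.025, Alox12 -0.15, Eif2s3y -0.28, Nfe2l2 -0.41, Slpi -0.92 and Ccnd1 -0.23. These turned above 0 there: Taf12 0.23, Prrg2 0.0145, Phyhd1 0.27, Dapl1 0.13, Tssk6 0.49, Tnp2 0.11, Fli1 0.18, Fam20c 0.26, Tnnc2 0.037, H2-DMa 0.006, Pecam1 0.17, Mitf 0.49, Spry1 0.038, Pkm 0.21 and Krt33b 0.29. That contrast is built on the near-copy. Elsewhere the named genes that changed sign were not called with the pair, though Cx3cr1, Slpi and Cat were called without it. Uty was 0.87 with array set as a term, with or without the pair, 0.19 with the range term, with or without it, 0.084 within set D and 0.10 in the higher range, with or without the pair. Eif2s3y was -0.22 with the range term, -0.16 without the pair and -0.10 in the higher range. H2-DMa was 0.09 with the range term without the pair. In the higher range Cat was -0.0252, Cx3cr1 0.25, Slpi -0.79 and, without the pair, Cdh1 -0.0712. A gene that was not called is not shown to be equal in both groups.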

Other observations

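Several genes called outside the lists were chosen after their values were seen. Shmt2, the mitochondrial serine hydroxymethyltransferase, averaged 0.68 in carcinomas, against -0.72 in normal skins, and rose by 1.41 ± 0.31 on the log2 scale (limma adjusted p = 0.0177). Sfxn1, a mitochondrial serine carrier, rose by 1.08 ± 0.24 (limma adjusted p = 0.0202). Bckdhb, a subunit of the complex that degrades branched-chain amino acids, rose by 1.20 ± 0.30 (limma adjusted p = 0.0418), as did Bckdk, the kinase that inhibits this complex, by 1.06 ± 0.23 (adjusted p = 0.0173). Suclg2, a succinyl-CoA ligase subunit of the citric acid cycle, rose by 1.23 ± 0.30 (limma adjusted p = 0.0325). Sec61a1, the channel that takes proteins into the endoplasmic reticulum, averaged 0.48 in carcinomas, against -1.62 in normal skins, and rose by 2.10 ± 0.46 (limma adjusted p = 0.0203). Ceacam2, an adhesion molecule, had 2.92, 2.26, 2.75 and 1.52 in carcinomas 1 to 4, against -2.51, -0.89, 0.01, -1.80 and -0.09 in normal skins 2 to 6. It rose by 3.42 ± 0.81 (limma adjusted p = 0.0389), and its papilloma means were -0.50 in the low-risk and -1.61 in the high-risk group.

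Other genes chosen in the same way were lower in carcinomas. Gata3, a transcription factor of epidermal and hair follicle differentiation, ran from -0.05 to 0.69 in carcinomas, against 0.92 to 3.13 in normal skins, without overlap, and fell by 1.48 ± 0.36 (limma adjusted p = 0.0331). Ccl27a, a keratinocyte chemokine that draws T cells to skin, ran from -0.55 to 0.12 in 5 carcinomas, against -0.43 to 2.72 in normal skins, and fell by 1.79 ± 0.42 (limma adjusted p = 0.0297). Mycn, a Myc family transcription factor, averaged -0.42 in carcinomas, against 2.10 in normal skins, and fell by 2.53 ± 0.55 (limma adjusted p = 0.0177). Tbx2, a T-box factor, fell by 2.13 ± 0.49 (limma adjusted p = 0.0263). Deptor, an inhibitor of the mTOR kinase, averaged -0.03 in carcinomas, against 1.47 in normal skins, and fell by 1.5 ± 0.32 (limma adjusted p = 0.0136). Med17, a subunit of the Mediator complex, fell by 3.37 ± 0.41 (limma adjusted p = 0.000102), and was measured in 4 carcinomas and 5 normal skins.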
